A study of Mus musculus with 12 samples.

Results

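The genes described here encode proteins of the cytosolic ribosome. They were chosen by a rule on names, set with earlier results of these data known. The rule takes a symbol that starts with Rpl or Rps and goes on with a digit, leaving out the Rps6k kinases and names that mark pseudogenes, or the symbol Rplp0, Rplp1, Rplp2 or Rpsa. Of the 11289 genes in the deposited expression table, 4 met this rule, and they are Rplp0, Rplp1, Rplp2 and Rpsa. The other ribosomal proteins, whose symbols carry a number, have 0 rows in the table and were not analysed here, so the values below describe these 4 genes and not the ribosome as a whole. The liver of 12 C57BL/6J mice was sequenced, with 4 mice in each of 3 groups. Control mice were labelled only as controls. Con A + PBS mice were given 15 mg/kg of concanavalin A (Con A), a lectin from plants through which T cells become activated and hepatitis follows, in the tail vein, and received PBS 30 min afterwards. Con A + hWJ-MSCs mice were given the same Con A and received human mesenchymal stromal cells of the umbilical cord, called hWJ-MSCs in the study and hUC-MSCs in the labels, suspended in 200 μL of PBS. All livers were taken at 24 h, from mice whose age is labelled as 8 to 10 weeks. The study's methods give a younger age range and male animals, and another cell number than the labels. The labels do not name the cord donor or the passage of the infused cells.

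The ribosome consists of a small subunit, which reads the mRNA, and a large subunit, which joins the amino acids. Rplp0, Rplp1 and Rplp2 form the stalk of the large subunit, an arm that draws translation factors such as the elongation factors to the ribosome: Rplp0 is its base and is bound to the ribosomal RNA, and the small acidic proteins Rplp1 and Rplp2 attach to it as dimers. Rpsa belongs to the small subunit and is also known as a laminin receptor precursor at the cell surface. mRNAs of ribosomal proteins typically begin with a cytosine followed by a run of pyrimidines, the terminal oligopyrimidine or TOP sequence, through which mTORC1 and the RNA-binding protein Larp1 control their translation. In the liver, hepatocytes make the plasma proteins and are rich in ribosomes.

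In GRCm38, with the coordinates of the deposited table, Rplp0 (ENSMUSG00000067274) lay at chr5:115559467-115563727 on the plus strand, in 7 exons and a transcript of 1358 nt. Rplp1 (ENSMUSG00000007892) lay at chr9:61913284-61914538 on the minus strand, in 3 exons and 499 nt. Rplp2 (ENSMUSG00000025508) lay at chr7:141447370-141451585 on the plus strand, in 5 exons and 964 nt. Rpsa (ENSMUSG00000032518) lay at chr9:120127766-120132369 on the plus strand, in 7 exons and 1938 nt. Exon counts and lengths are those of GENCODE M21, where Rpsa starts at 120127689 and the interval of Rplp1 ends at 61914542. All 4 are protein-coding genes on separate loci. GENCODE M21 lists 9 pseudogenes named after Rpsa, 1 after Rplp0, 1 after Rplp1 and 0 after Rplp2. None of these pseudogenes is a row of the table, and reads shared with such copies could have been counted for the parent gene, most of all for Rpsa.

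The bases around the annotated starts are shown because the 4 genes moved together in the comparisons below and because the TOP sequence is the feature known for this gene class. They were taken from RefSeq for GRCm38.p6, which held a promoter for 3 of the 4 genes and none for Rplp1. Each line gives 40 bases before the annotated start and 30 bases from it, 5′ to 3′ on the gene's strand, and capitals mark each cytosine followed by at least 4 pyrimidines. Fau and Rack1, which the table calls Gnb2l1, are ribosomal components with other names and are shown for comparison. The windows are chr5:115559427-115559496 for Rplp0, chr7:141447611-141447680 for Rplp2, chr9:120127726-120127795 for Rpsa, chr19:6057907-6057976 for Fau and chr11:48800320-48800389 for Rack1, all on the plus strand.
Rplp0: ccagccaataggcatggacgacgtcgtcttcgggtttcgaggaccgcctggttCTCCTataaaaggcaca
Rplp2: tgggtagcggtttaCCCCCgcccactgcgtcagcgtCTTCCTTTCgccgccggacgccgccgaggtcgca
Rpsa: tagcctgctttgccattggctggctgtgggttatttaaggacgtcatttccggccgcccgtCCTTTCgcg
Fau: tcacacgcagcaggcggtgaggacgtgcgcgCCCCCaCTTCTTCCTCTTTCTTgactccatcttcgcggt
Rack1: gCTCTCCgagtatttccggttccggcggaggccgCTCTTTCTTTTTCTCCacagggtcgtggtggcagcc

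In Rplp2 the annotated first base fell inside such a pyrimidine run of 9 bases, in Fau inside a run of 16 bases and in Rack1 inside another of 16 bases. In Rplp0 the run of 5 bases began at base 14 after the start, and in Rpsa the run of 6 bases began at base 22, so that in these genes the annotated first base lay outside a run. Of all 32851 promoters, 8.02% had their first base in such a run and 63.6% held a run somewhere in the 70 bases. The start that RefSeq gives for Rplp2, at 141447651, is not the start of the gene in the deposited table, and these sequences say nothing of which starts were used in these livers. Within 300 bases and on both strands, TATAAA was found 1 time for Rplp0, against 13.6% of all promoters with at least 1 copy. This copy lies after the annotated start, not before it, and begins at the last base of the marked run. CCAAT was found 2 times for Rplp0 and 1 time for Rpsa, against 37.4% of promoters. TTCCGG, the core of sites of ETS factors such as Gabpa, was found 3 times for Rpsa, 2 times for Rack1 and 1 time for Rplp2, against 14.9% of promoters.

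All values are scores, whole numbers that had been normalized between mice before deposit, and the depth of sequencing behind them is unknown. Their totals ran from 17649654 to 17657159 in the 12 mice, which reflects the normalization, not the depth. On a principal component analysis, Con A + PBS replicate 4 stood apart at -55.2 on the second component, against -15 to 7.57 for the other mice of that group. Differences were tested with limma on log2(score + 1), with p-values adjusted by Benjamini-Hochberg over all genes. Calls needed an adjusted p below 0.05 together with a change of more than 1.5-fold.

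After Con A, all 4 ribosomal protein genes rose, by 1.54-fold to 2.65-fold, with each of the 4 Con A + PBS mice above each of the 4 control mice, a separation that 27.1% of all genes also showed in this direction. In this comparison 19.5% of all genes were called higher and 19.2% lower, 38.8% in either direction, so a call was common, and the 4 of 4 stand against that share with few genes. The median log2 fold change was 1.06 for the 4 genes and 0.05 for all genes. On the scale of the log2 fold change, Rplp2 exceeded 93.9% of all genes, Rplp0 91.5%, Rpsa 89.8% and Rplp1 80.8%.

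Rplp0, the base of the stalk, had scores of 3596, 4938, 4748 and 4748 in the control mice, 9428, 9428, 9880 and 10370 in the Con A + PBS mice and 10370, 8248, 10370 and 10370 in the Con A + hWJ-MSCs mice. The lowest Con A mouse lay well above the highest control. Only 7 distinct values occurred in the 12 mice, the same value recurring in several mice, as elsewhere in the deposited scores. The mean was 4508 ± 614 (SD, n = 4) in controls and 9776 ± 449 (SD, n = 4) after Con A + PBS, a log2 fold change of 1.13 with a 95% interval of 0.85 to 1.40 (SE 0.13, Benjamini-Hochberg adjusted p by limma = 1.9e-05).

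Rplp1, a stalk protein, had scores of 5904, 5130, 5242 and 4736 in the control mice, 7936, 8520, 8224 and 7600 in the Con A + PBS mice and 9389, 8520, 10336 and 8890 in the Con A + hWJ-MSCs mice. The groups given Con A did not overlap with the controls, and 3 of the 4 hWJ-MSC mice lay above the highest Con A + PBS mouse while the other shared its value. Its rise after Con A was the smallest of the 4 genes, from 5253 ± 485 to 8070 ± 394 (SD, n = 4 each), a log2 fold change of 0.62 with a 95% interval of 0.39 to 0.86 (SE 0.11, Benjamini-Hochberg adjusted p by limma = 4.1e-04). This gene was near the fold threshold: without Control replicate 4 its log2 fold change was 0.57 (Benjamini-Hochberg adjusted p by limma = 0.00158), and with centring by mean level it was 0.57 (adjusted p = 8.7e-04), both below 1.5-fold.

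Rplp2, the dimer partner of Rplp1 in the stalk, had scores of 2758, 2038, 2286 and 1516 in the control mice, 6528, 6154, 6036 and 3973 in the Con A + PBS mice and 6528, 5246, 7945 and 7341 in the Con A + hWJ-MSCs mice. The groups given Con A lay above the controls, and Con A + PBS replicate 4, the mouse that stood apart on the principal components, was the lowest of the 8 Con A mice. Its rise was the largest of the 4 genes, from 2150 ± 517 to 5673 ± 1152 (SD, n = 4 each), a log2 fold change of 1.41 with a 95% interval of 0.96 to 1.86 (SE 0.21, Benjamini-Hochberg adjusted p by limma = 1.3e-04). Without Con A + PBS replicate 4 the log2 fold change was 1.57.

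Rpsa, the small subunit protein, had scores of 5754, 5576, 5144 and 5256 in the control mice, 10972, 9880, 10370 and 12230 in the Con A + PBS mice and 10972, 9880, 12230 and 9880 in the Con A + hWJ-MSCs mice. All controls lay close together and below all Con A mice, and both Con A groups covered the same range of 9880 to 12230. The mean rose from 5432 ± 282 to 10863 ± 1015 (SD, n = 4 each), a log2 fold change of 1.00 with a 95% interval of 0.75 to 1.24 (SE 0.11, Benjamini-Hochberg adjusted p by limma = 2.0e-05).

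**Figure D1:**
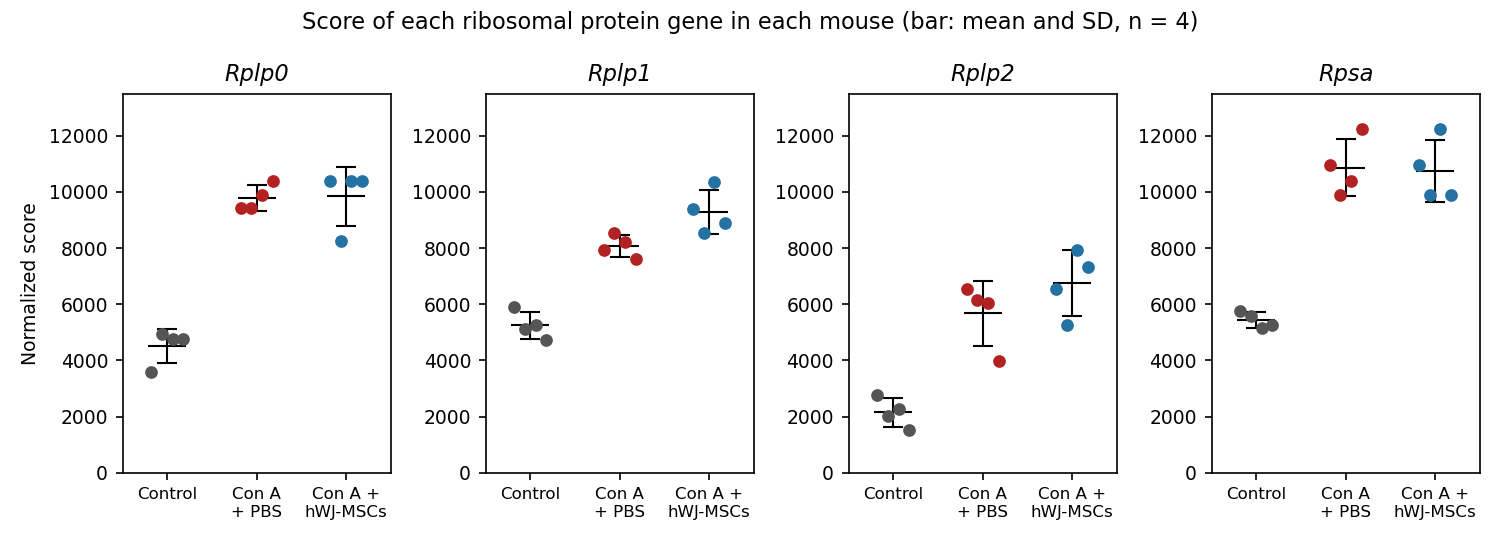
Normalized score (vertical axis, linear from 0) of Rplp0, Rplp1, Rplp2 and Rpsa in each mouse of the 3 groups (horizontal axis), with the group mean and SD (n = 4). In each panel every Con A mouse lies above every control, and the Con A groups with PBS and with hWJ-MSCs overlap, for Rplp1 only at the shared value of 8520. For Rplp2 the lowest Con A mouse is at 3973 and the highest control at 2758.

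The 4 genes were already among the higher scores of the control liver. The share of genes with a lower mean score was 95.9% for Rplp0, 96.5% for Rplp1, 90.6% for Rplp2 and 96.6% for Rpsa in controls, and 98.1%, 97.7%, 96.8% and 98.3% in the same order after Con A + PBS. These scores are not divided by transcript length, so the ranks describe each gene against the table and not the genes against each other. The mean log2 score of the 4 genes ran from 11.84 to 12.07 in the controls, from 12.94 to 13.06 in the Con A + PBS mice and from 12.92 to 13.30 in the Con A + hWJ-MSCs mice.

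The second question was whether the infused cells changed these genes in livers given Con A. None of the 4 genes was called, and 0 of them had an unadjusted p below 0.05, against 34.6% of all genes, in a comparison where 4.2% of all genes were called higher and 4.38% lower, 8.58% in either direction. The scores of both Con A groups overlapped for every gene, for Rplp1 only at the shared value of 8520. The median log2 fold change was 0.10, against 0.00 for all genes. The log2 fold change of Con A + hWJ-MSCs against Con A + PBS was 0.00 for Rplp0, with a 95% interval of -0.27 to 0.28 (Benjamini-Hochberg adjusted p by limma = 0.992). For Rpsa it was -0.02, with an interval of -0.26 to 0.23 (Benjamini-Hochberg adjusted p by limma = 0.93). The intervals of these genes exclude a change of 1.5-fold in either direction, since as folds they ran from 0.827 to 1.22 and from 0.833 to 1.17.

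Both small stalk proteins had higher means with the cells, 9284 ± 787 against 8070 ± 394 for Rplp1 and 6765 ± 1167 against 5673 ± 1152 for Rplp2 (SD, n = 4 each). Neither difference passed the test. The log2 fold change was 0.20 for Rplp1, with a 95% interval of -0.03 to 0.43 (Benjamini-Hochberg adjusted p by limma = 0.206), and 0.26 for Rplp2, with a 95% interval of -0.19 to 0.71 (adjusted p = 0.386). For Rplp2 the upper end, a fold of 1.64, does not exclude a rise of 1.5-fold. Leaving out 1 mouse, the log2 difference of Rplp2 ran from 0.10 without Con A + PBS replicate 4 to 0.38 without Con A + hWJ-MSCs replicate 2. With centring by transcript length it was 0.06 for Rplp2 and 0.01 for Rplp1.

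Against the controls, which are the same 4 mice as in the comparison of Con A + PBS, all 4 genes were called higher in the Con A + hWJ-MSCs group, where 13.6% of all genes were called higher and 13.1% lower, 26.7% in either direction. Their scores did not overlap with those of the controls, as was true in this direction of 20.6% of all genes. Rplp2 was 3.18-fold higher (log2 fold change 1.67, Benjamini-Hochberg adjusted p by limma = 7.3e-05). Rplp0 was 2.19-fold higher (adjusted p = 3.8e-05), Rpsa 1.97-fold (adjusted p = 4.5e-05) and Rplp1 1.77-fold (adjusted p = 1.1e-04). The median log2 fold change of the 4 genes was 1.05, and 0.04 for all genes. With a threshold of 2-fold instead of 1.5-fold, 2 of the 4 genes were called in each comparison with the controls, where 9.81% of all genes were called higher after Con A + PBS and 6.49% after Con A + hWJ-MSCs.

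**Figure D2:**
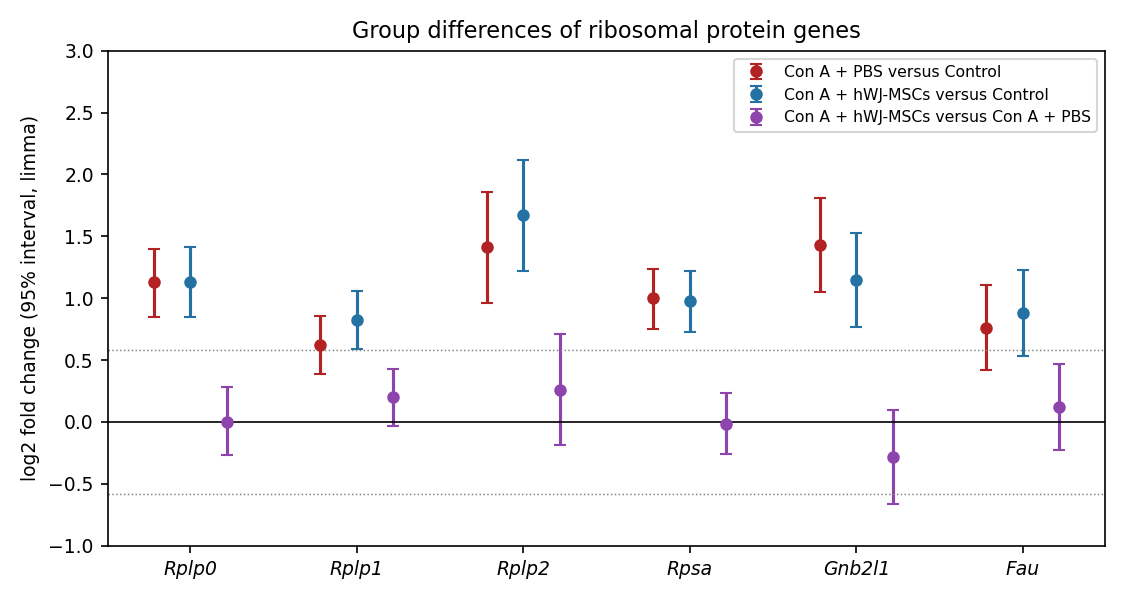
Log2 fold change with its 95% interval (vertical axis, limma) for the 4 genes and for Gnb2l1 and Fau (horizontal axis) in the 3 comparisons, with dotted lines at a fold change of 1.5 in each direction. Both comparisons with the controls lie above 0 for every gene shown, and the comparison of the Con A groups spans 0 for every gene.

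The balance of the 3 stalk genes within a mouse also differed between the groups, as a description without a test. Since transcript lengths differ, only the change of such a difference between groups can be read and not its size. The log2 score of Rplp2 minus that of Rplp1 was -1.32 ± 0.24 in the controls (SD, n = 4), -0.53 ± 0.28 after Con A + PBS and -0.47 ± 0.18 with hWJ-MSCs. All 8 Con A mice, from -0.94 to -0.28, lay above the 4 controls, from -1.64 to -1.10. The difference was thus shifted towards Rplp2 in both Con A groups. Rplp2 and Rplp1 had the largest and the smallest rise of the 4 genes, so this shift restates their fold changes. How many other gene pairs separate in this way was not counted. The log2 score of Rplp1 minus that of Rplp0 was 0.23 ± 0.33 in the controls, with 0.72 in Control replicate 1 and 0.00 to 0.14 in the others, -0.28 ± 0.13 after Con A + PBS and -0.08 ± 0.12 with hWJ-MSCs. All 4 Con A + PBS mice lay below all controls, and the hWJ-MSC mice overlapped with both groups. For Rplp2 minus Rplp0 the 3 groups overlapped, with -1.09 ± 0.53 in the controls, -0.81 ± 0.39 after Con A + PBS and -0.55 ± 0.13 with hWJ-MSCs.

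**Figure D3:**
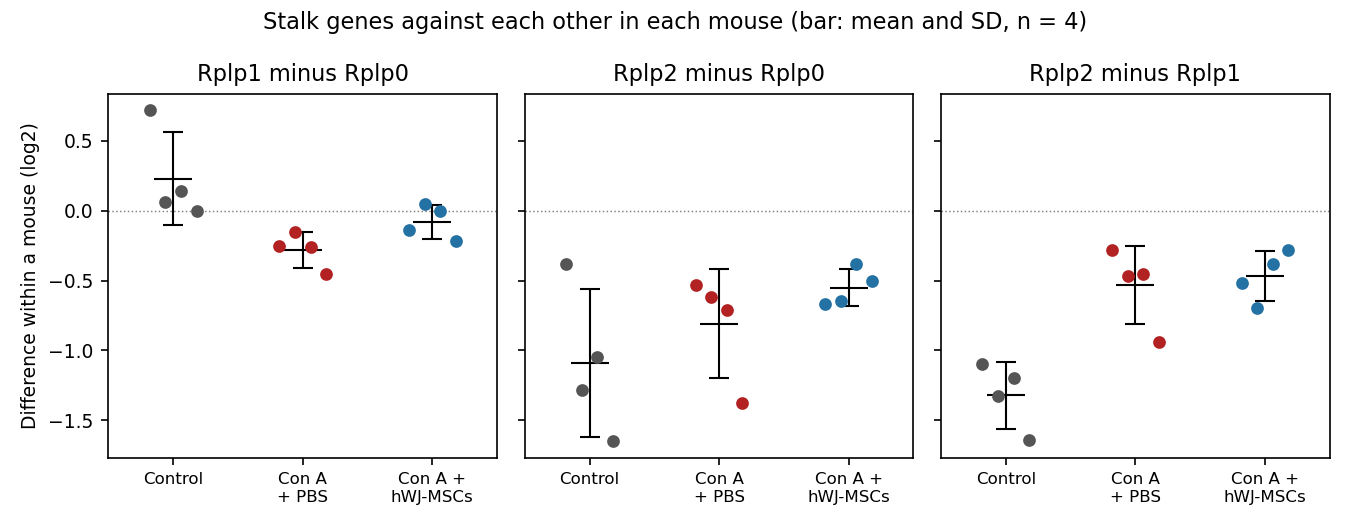
Difference between the log2 scores of a pair of stalk genes within each mouse (vertical axis) by group (horizontal axis), with the mean and SD (n = 4). Rplp2 minus Rplp1 runs from -1.64 to -1.10 in the controls and from -0.94 to -0.28 in the Con A mice, while Rplp2 minus Rplp0 overlaps between the groups.

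Some ribosomal components carry names that the rule does not take, and Gnb2l1 and Fau are described here. Gnb2l1 encodes the Rack1 protein, a scaffold on the head of the small subunit. Fau encodes a ubiquitin-like protein fused to a small subunit protein. Gnb2l1 had scores of 3784, 4530, 3957 and 4166 in the controls, 10298, 9812, 9812 and 15006 after Con A + PBS and 8856, 6912, 11525 and 9812 with hWJ-MSCs. It rose 2.69-fold after Con A (log2 fold change 1.43, 95% interval 1.05 to 1.81, Benjamini-Hochberg adjusted p by limma = 3.4e-05). Its groups given Con A lay above all controls, and Con A + PBS replicate 4 was the highest mouse.

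Fau had scores of 1918, 1268, 1654 and 1467 in the controls, 2968, 2284, 2439 and 2968 after Con A + PBS and 2898, 2236, 3081 and 3397 with hWJ-MSCs, again without overlap of the controls with the Con A mice. It rose 1.7-fold after Con A (log2 fold change 0.76, Benjamini-Hochberg adjusted p by limma = 0.0016). Neither was called between the Con A groups, where the log2 fold changes were -0.28 for Gnb2l1 and 0.12 for Fau (Benjamini-Hochberg adjusted p by limma = 0.278 and 0.634).

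The neighbours of ribosomal proteins in the translation machinery were taken from a list of 20 genes with TOP mRNAs or close ties to them, of which 19 were measured, Gnb2l1 and Fau among them. After Con A, 12 rose, 1 fell and 6 were not called, beside 19.5% of all genes called higher and 19.2% lower, with a median log2 fold change of 0.59. Between the Con A groups 0 were called by limma with Benjamini-Hochberg adjustment, beside 8.58% of all genes, 4 had an unadjusted p below 0.05, beside 34.6%, and the median was -0.06. In the Con A + hWJ-MSCs mice against the controls, 11 were called higher and 1 lower, beside 13.6% and 13.1% of all genes.

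The largest rise in this list was that of Npm1, nucleophosmin, a nucleolar protein of ribosome assembly. Its scores were 3168, 2792, 2830 and 2584 in the controls and 13253, 11618, 10370 and 17674 after Con A + PBS, so that the groups were far apart (4.57-fold, Benjamini-Hochberg adjusted p by limma = 4.0e-06). Nap1l1, a histone chaperone of the nucleosome assembly protein family, went from 690, 835, 783 and 800 to 3046, 2612, 2612 and 4040 (3.9-fold, adjusted p = 1.6e-06). Of the subunits of elongation factor 1, which brings the aminoacyl-tRNA to the ribosome, the log2 fold change was 1.52 for Eef1g (Benjamini-Hochberg adjusted p by limma = 3.1e-05) and 1.23 for Eef1b2 (adjusted p = 8.7e-05), and both rose. Eef1d, of the same complex, did not reach the fold threshold at 0.38 (adjusted p = 0.016), and Eef1a1, which carries the tRNA, was at 0.24 (adjusted p = 0.129). Pabpc1, the poly(A)-binding protein, rose by a log2 fold change of 1.15 (Benjamini-Hochberg adjusted p by limma = 8.6e-05).

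Eef2, the factor that moves the ribosome along the mRNA and that binds the stalk, was the only gene of this list called lower. Its scores were 16300, 34316, 25781 and 29636 in the controls, 13920, 13184, 13920 and 17632 after Con A + PBS and 13184, 11566, 12196 and 13184 with hWJ-MSCs. Control replicate 1 lay far below the other controls and within the range of the Con A + PBS mice, so the groups overlapped. The log2 fold change after Con A was -0.81, with a 95% interval of -1.24 to -0.38 (Benjamini-Hochberg adjusted p by limma = 0.00429). Thus the stalk genes rose while the mRNA of this stalk-bound factor fell. Eif4b, a helper of the mRNA-unwinding initiation factor, was the next lowest at -0.18 and was not called (adjusted p = 0.171).

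**Figure D4:**
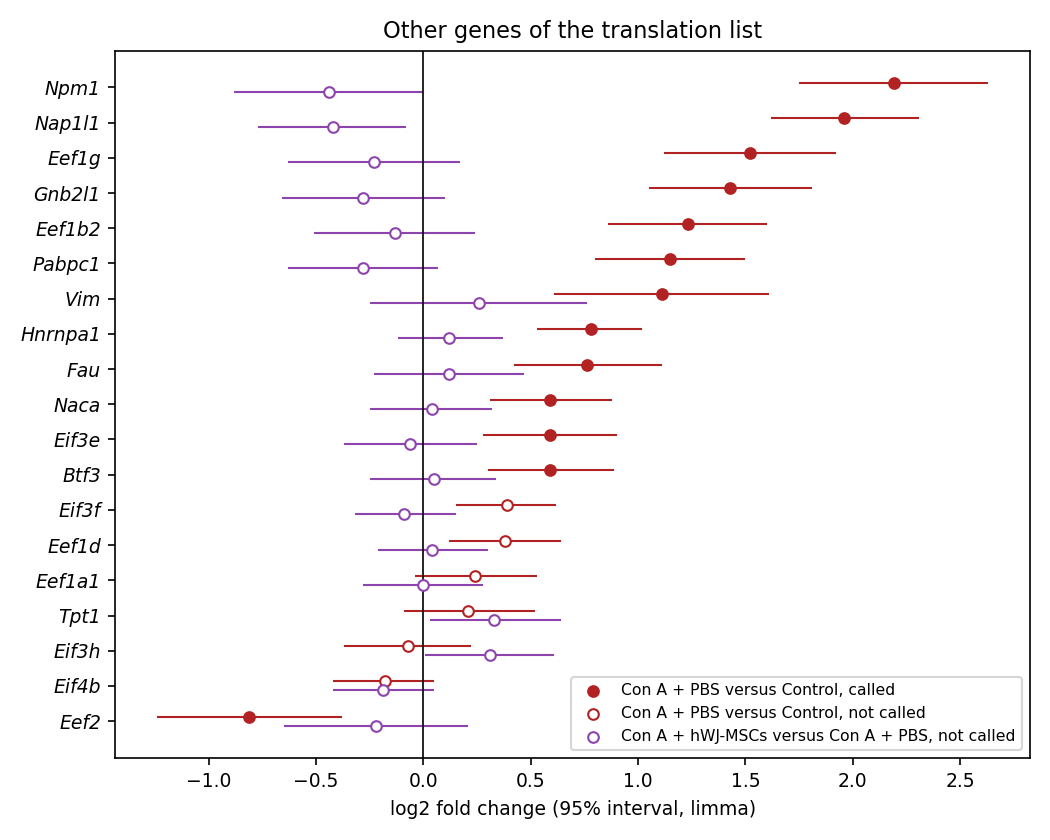
Log2 fold change with its 95% interval (horizontal axis, limma) of the 19 measured genes of the translation list (vertical axis, ordered by the change after Con A), for Con A + PBS against Control and for Con A + hWJ-MSCs against Con A + PBS. Filled points were called; 12 genes lie to the right and Eef2 to the left after Con A, and no point of the comparison between the Con A groups is filled.

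mTORC1 and its partners, which control the translation of TOP mRNAs, were called in both directions, as were the genes of the whole table. Of 19 genes listed, 17 were measured, and after Con A 5 rose and 3 fell, beside 19.5% of all genes called higher and 19.2% lower, and the median log2 fold change was 0.05 for the list and for all genes. The 5 that rose were the cap-binding complex genes Eif4a1, Eif4e and Eif4g1, the Eif4e inhibitor Eif4ebp1, and Sesn2, an inhibitor of mTORC1 that responds to stress. Eif4a1, the RNA helicase, went from 2616, 3091, 3091 and 2942 in the controls to 7626, 6546, 7140 and 8920 after Con A + PBS (log2 fold change 1.36, Benjamini-Hochberg adjusted p by limma = 2.2e-05), and Eif4e, which binds the cap, from 680, 634, 780 and 596 to 1285, 1224, 1182 and 2106 (1.07, adjusted p = 2.7e-04). Both were without overlap between these groups. The log2 fold change was 0.88 for Eif4g1 (Benjamini-Hochberg adjusted p by limma = 0.0087), 0.77 for Sesn2 (adjusted p = 0.00612) and 0.65 for Eif4ebp1 (adjusted p = 0.00172), which without Con A + PBS replicate 4 was 0.52 and below 1.5-fold.

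The 3 that fell, Deptor, Sesn1 and Tsc1, are inhibitors of mTORC1 or of its activation. Deptor had scores of 1918, 3180, 1972 and 3104 in the controls and 839, 1098, 904 and 315 after Con A + PBS (log2 fold change -1.79, Benjamini-Hochberg adjusted p by limma = 6.8e-04), with all Con A + PBS mice below all controls. Sesn1 was at -1.15 (Benjamini-Hochberg adjusted p by limma = 3.9e-05) and Tsc1 at -0.78 (adjusted p = 0.0011). Inhibitors were thus found among both the genes that rose and those that fell, and protein phosphorylation, by which this pathway works, was not measured. Between the Con A groups 1 of the 17 was called, beside 4.38% of all genes called lower and 8.58% in either direction, and 6 had an unadjusted p below 0.05, beside 34.6% of all genes. This was Sesn2, lower with hWJ-MSCs at 208, 156, 178 and 226 against 356, 234, 322 and 474 (log2 fold change -0.82, Benjamini-Hochberg adjusted p by limma = 0.0286). When any 1 of 5 mice was left out its adjusted p was above 0.05, up to 0.0897, with a log2 fold change of -0.84 to -0.65. Eif4g1, Eif4ebp1, Sesn2 and Tsc1, and the genes Tbpl1, Ipo7 and Ltv1 below, were named after their values had been seen, so that the called genes of these lists are all named for the change after Con A.

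Among transcription factors known at ribosomal protein genes, 9 of 10 were measured, and after Con A 3 rose and 0 fell, which with 9 genes is not far from the 19.5% higher and 19.2% lower of all genes, with a median log2 fold change of 0.25. Myc, which drives genes of ribosome formation and growth, had scores of 106, 58, 39 and 48 in the controls, 578, 282, 274 and 1692 after Con A + PBS and 152, 74, 112 and 113 with hWJ-MSCs. It rose 8.86-fold after Con A (log2 fold change 3.15, Benjamini-Hochberg adjusted p by limma = 2.3e-04), with Con A + PBS replicate 4 far above the other mice, and without that mouse the log2 fold change was 2.58. All 4 hWJ-MSC mice lay below all Con A + PBS mice, with a log2 fold change of -2.25 (Benjamini-Hochberg adjusted p by limma = 0.0252), and without Con A + PBS replicate 1 or without Con A + hWJ-MSCs replicate 2 or 3 the adjusted p was 0.0761, 0.077 and 0.0667, with a log2 fold change of -2.21, -2.07 and -2.26. Of the 9 factors, 1 was called lower between the Con A groups, beside 4.38% of all genes, and 0 higher, beside 4.2%. In this comparison 8 of the 9 were negative, beside 5627 of all 11289 genes, and 5 had an unadjusted p below 0.05, beside 34.6%. The 4 ribosomal protein genes, in the same livers, were not called between these groups, and a link between them and Myc was not tested.

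Max, the partner of Myc on DNA, was 1.54-fold higher after Con A (log2 fold change 0.62, Benjamini-Hochberg adjusted p by limma = 0.00109), and Tbpl1, a relative of the TATA-binding protein, 1.53-fold (adjusted p = 0.00517). Both were near the fold threshold, and fell below it when Con A + PBS replicate 4 was left out, at 0.55 for Max and 0.53 for Tbpl1. Without Control replicate 4 Max was at 0.52, with centring by mean level it was at 0.58, below the threshold as well, and without Control replicate 1 or 3 Tbpl1 was at 0.50 and 0.58, and it was also below the threshold with a pseudocount of 10 (0.58) and with centring by transcript length (0.51). Gabpa, an ETS factor, had a log2 fold change of -0.40 (Benjamini-Hochberg adjusted p by limma = 0.0028) and did not reach the fold threshold, with scores of 772 to 948 in the controls and 608 to 698 after Con A + PBS. Tbp, the TATA-binding protein, was at 0.01 (adjusted p = 0.971).

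Dedicated chaperones and importins guard newly made ribosomal proteins on the way to the nucleolus. All 8 listed genes were measured, and after Con A 4 rose and 0 fell, beside 19.5% higher and 19.2% lower of all genes, with a median log2 fold change of 0.55. These were Nap1l1, described above, and Grwd1, Ltv1 and Ipo7. Grwd1, a WD-repeat chaperone of a large subunit protein, went from 108, 90, 107 and 126 to 222, 222, 260 and 481 (log2 fold change 1.38, Benjamini-Hochberg adjusted p by limma = 2.5e-04), without overlap. The log2 fold change was 1.06 for Ltv1, a small subunit assembly factor (Benjamini-Hochberg adjusted p by limma = 3.9e-04), and 0.79 for the importin Ipo7 (adjusted p = 0.0123), which without Control replicate 1 was 0.52 and below 1.5-fold. Tsr2, a chaperone of a small subunit protein, was at -0.21 (adjusted p = 0.13). Aamp, the lowest of the list, was at -0.27 (adjusted p = 0.0159) and within the fold threshold. Between the Con A groups 1 of the 8 was called lower and 0 higher, beside 4.38% and 4.2% of all genes, and 4 had an unadjusted p below 0.05, beside 34.6%. The called gene was Ipo7, lower with hWJ-MSCs at 828, 820, 804 and 1170 against 1741, 1541, 1698 and 1810 (log2 fold change -0.92, Benjamini-Hochberg adjusted p by limma = 0.0321). When any 1 of 6 mice was left out, the adjusted p of Ipo7 was above 0.05, up to 0.092, with a log2 fold change that stayed at -0.92 to -0.87.

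Free ribosomal proteins of the large subunit can bind Mdm2, the ubiquitin ligase that keeps p53 low. For this reason 5 genes of the p53 checkpoint were listed, of which 4 were measured. After Con A 2 rose and 0 fell, beside 19.5% of all genes called higher and 19.2% lower. A link of these genes to the 4 ribosomal protein genes was not tested. Cdkn1a, the cell cycle inhibitor and target of p53, had scores of 392, 252, 254 and 590 in the controls and 2521, 2009, 2492 and 3260 after Con A + PBS, a rise of 7.24-fold (Benjamini-Hochberg adjusted p by limma = 2.8e-06). Mdm2 rose 1.88-fold (adjusted p = 3.7e-04). Trp53, which encodes p53, was at a log2 fold change of 0.24 (Benjamini-Hochberg adjusted p by limma = 0.173) and Mdm4 at -0.12 (adjusted p = 0.536), and neither was called. With hWJ-MSCs against PBS, 0 of the 4 were called, beside 8.58% of all genes, and 1, Mdm2, had an unadjusted p below 0.05, beside 34.6%, with a log2 fold change of -0.56 (Benjamini-Hochberg adjusted p by limma = 0.0386) that did not reach 1.5-fold.

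The ribosome of the mitochondrion has its own proteins, with names that start with Mrpl or Mrps, and 77 such genes were in the table. After Con A 2 were called higher, 4 lower and 71 not, beside 19.5% higher and 19.2% lower of all genes, with a median log2 fold change of -0.09, against 1.06 for the 4 cytosolic genes. Between the Con A groups 4 were called higher and 0 lower by limma with Benjamini-Hochberg adjustment, beside 4.2% and 4.38% of all genes. Of the 77 genes, 71 were positive, beside 5656 of all 11289 genes, and 42 had an unadjusted p below 0.05, beside 34.6% of all genes. The median was 0.30, against 0.10 for the cytosolic genes and 0.00 for all genes. The difference between these sets was not tested.

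Markers of several cell types differed between the groups, and in bulk RNA a change in the number of cells of a type and a change in the RNA per cell cannot be told apart. All 6 hepatocyte markers, Alb among them, had a score above 0 in every mouse, and their summed score was 782791 to 986619 in the controls, 500298 to 535614 after Con A + PBS and 539190 to 612236 with hWJ-MSCs, with 3 of the 6 called lower after Con A + PBS by limma. The summed score of 6 neutrophil or monocyte markers was 779 to 1120 in the controls, 5914 to 7400 after Con A + PBS and 2359 to 4498 with hWJ-MSCs, with 5 of them called higher after Con A + PBS and 1 lower. That of 5 measured T or NK cell markers of 6 listed was 415 to 525, 1044 to 1727 and 953 to 1526 in the same order, with all 5 called higher and Cd8a at 0 in 1 mouse. The 5 Kupffer cell markers went the other way, at 2910 to 4734, 148 to 341 and 156 to 653, with all 5 called lower. The 5 markers of sinusoidal endothelium were at 1836 to 2658, 859 to 1196 and 1079 to 1280, with 3 called lower and 1 higher. The 4 markers of stellate cells were at 3196 to 5766, 4873 to 5712 and 3260 to 4444, with 1 called lower, and both Con A groups overlapped with the controls but not with each other. Of 4 markers of cycling cells, 2 were measured, at 66 to 244, 153 to 416 and 202 to 365, and both were called higher. In the table there were 0 of 4 B cell markers. After Con A + PBS 38.8% of all genes were called in either direction and between the Con A groups 8.58%. In the latter comparison markers were called lower with hWJ-MSCs for 1 of 6 neutrophil or monocyte genes (median log2 fold change of the list -0.05) and 1 of 5 T or NK cell genes, 1 lower and 1 higher of the 5 endothelial genes, and 0 in the lists of hepatocytes, Kupffer cells, stellate cells and cycling cells. The part of these shifts in the rise of the ribosomal protein genes was not tested.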

How the data were processed

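Liver RNA of 12 mice was sequenced after poly(A) selection. The authors deposited 1 table of scores, with 11289 genes as rows and the 12 mice as columns. The submitters' processing notes name Bowtie2 2.2.1, RSEM 1.2.18 and the build mm10 (GRCm38), without saying what each was used for, and the study names DESeq2 for its differential test. The deposited scores are whole numbers that had been normalized between mice and are not raw counts: 82.1% of the ranks hold the same value in all 12 mice, the largest value is 341028 in every mouse, and every gene reaches 64 in at least 2 mice. The normalization is not given in the sources used here. Because depth cannot be read from such scores, neither counting error nor floor is given, and count tests were not used. All columns of the table were used.

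Groups and replicate numbers came from the sample titles. After the transformation log2(score + 1), 1 linear model without covariates was fitted to the 12 mice (limma 3.58.1, R 4.3.3, lmFit, eBayes with a trend). p-values were adjusted by Benjamini-Hochberg over all genes, and calls needed an adjusted p below 0.05 together with a change of more than 1.5-fold. Fold changes are on the log2(score + 1) scale. The labels give 4 mice per group and no litter, cage or batch. The fit was tested on simulated data before use. Summaries and plots were made with Python 3.11.15, pandas 2.3.3, numpy 2.4.6 and matplotlib 3.10.9. Promoter sequences are those of RefSeq (GRCm38.p6), and exon and pseudogene counts those of GENCODE M21.

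The members and the gene lists were chosen with earlier results of these data known. Under the rule for naming genes, the text names every member, ribosomal components with other names and, in each list of related genes, the 2 highest and the 2 lowest after Con A. Some genes that meet this rule or belong to the lists are not reported here and stand in none of the list counts. Other genes named were chosen after their values were seen. The list of mitochondrial ribosomal proteins was drawn from the table's names, and it is given by its counts without naming its genes. As alternatives, quantile normalization, median centring, a filter at a mean score of 100, a pseudocount of 10, centring within 10 bins of transcript length or of mean level, eBayes without a trend, only the 8 mice compared, a fold change above 2, the replicate number as a block and leaving out each mouse were tried.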

Additional observations from a re-analysis of the deposited data

Results flagged for a closer look

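In 32 named genes and 3 groups, 96 groups of 4 mice were looked through for a mouse far from the other 3 of its group, by Dixon's 95% criterion for the gap as a share of the group's range. Chance alone marks about 1 group in 20, and 10 were marked here. Among the ribosomal protein genes, Rplp0 was at 3596 in Control replicate 1, below 4748 to 4938 in the other controls, and at 8248 in Con A + hWJ-MSCs replicate 2, below the 10370 that the other 3 mice shared. Rplp2 was at 3973 in Con A + PBS replicate 4, below 6036 to 6528 in the rest of that group.

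The same Con A + PBS replicate 4 was the highest of its group for Gnb2l1 at 15006, against 9812 to 10298, for Eif4e at 2106, against 1182 to 1285, and for Eif4ebp1 at 1296, against 903 to 921. In Con A + hWJ-MSCs replicate 2, Eif4a1 was at 3866 against 6046 in the other 3 mice, and Deptor was at 1538 against 1030 to 1084. In Con A + hWJ-MSCs replicate 4, Eif4g1 was at 10944 against 6528 to 6938, and Ipo7 was at 1170 against 804 to 828.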

How the results depend on the processing

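With a fold change above 2, the genes called higher were 2 after Con A + PBS and 2 after Con A + hWJ-MSCs, each against the controls. With centring by transcript length the median log2 fold change between the Con A groups was -0.05 and that of Con A + hWJ-MSCs against the controls 0.95, and with centring by mean level the latter was 0.96. With 1 mouse left out at a time, 3 to 4 of the genes were called higher after Con A + PBS and 4 in each fit after Con A + hWJ-MSCs, and the medians were 1.02 to 1.09, 0.06 to 0.16 between the Con A groups and 1.01 to 1.12. The log2 fold change after Con A + PBS ranged from 1.02 to 1.23 for Rplp0, 0.57 to 0.68 for Rplp1, 1.25 to 1.57 for Rplp2 and 0.94 to 1.04 for Rpsa. Values near 0 changed sign: between the Con A groups Rplp0 was at -0.20 with centring by length and -0.04 by mean level, and with 1 mouse left out Rplp0 ran from -0.02 to 0.09 and Rpsa from -0.08 to 0.04; after Con A, Tbp was at -0.01 by mean level and ran from -0.13 to 0.16, and Mdm4 from -0.19 to 0.02. The cause of these shifts was not tested. Median centring and quantile normalization, close to how the scores were already scaled, shifted no mouse, and the restriction to core proteins left the same 4 genes, so these alternatives say little of stability. With the replicate number as a block the medians were 1.06, 0.10 and 1.05, which each number occurring 1 time per group fixes in advance; no call of the 4 genes changed, and the genes called among all genes went from 4379 to 4429, from 969 to 1297 and from 3015 to 3080. The numbers belong to different animals, and of 12 pairs of same-numbered mice 4 had a correlation of their deviations above 0.1 (range -0.118 to 0.375), against 3 of 36 pairs with different numbers (range -0.385 to 0.141), and 5 of 12 mice correlated best with a mouse of their own number. Since not every same-numbered pair was above 0.1 and the labels tie the numbers to nothing shared, the mice were not taken as paired. Depth, unknown here, limits what can be said of the lower scores.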

Other observations

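The genes whose log2 scores, centred over the 12 mice, lay closest to the mean of the 4 ribosomal protein genes were sought after the values had been seen, by the root mean square difference. They were Tbcb, a tubulin folding cofactor, at 0.09, Spcs2, a subunit of the signal peptidase, at 0.09, Ppib, a prolyl isomerase of the endoplasmic reticulum, at 0.11, Nudt18, a hydrolase of oxidized nucleotides, at 0.13, and Nme1, a nucleoside diphosphate kinase, at 0.13. After Con A + PBS the log2 fold change was 1.03 for Tbcb, 0.95 for Spcs2, 0.99 for Ppib, 1.27 for Nudt18 and 0.91 for Nme1. Between the Con A groups it was 0.17, 0.23, 0.31, 0.02 and 0.26 in the same order. These are descriptions over the same 12 mice, without a test.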
